A study of Homo sapiens with 12 samples.

Results

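The genes described here encode the nuclear-encoded subunits of mitochondrial complexes I to V. They were taken by gene name from the array annotation (names that begin with NDUFA, NDUFB, NDUFC, NDUFS or NDUFV and a number, SDHA to SDHD, UQCR, COX4 to COX8, or ATP5), with 2 pseudogenes left out. Of the 87 names that matched, 80 were subunit genes, and 75 of these had a probe set for that gene alone, out of 19775 genes measured in this way. The 75 genes fell into complex I (32 genes), complex II (3), complex III (6), complex IV (17) and complex V (17). The other subunit genes, NDUFC2, NDUFS5, NDUFS8, UQCRH and UQCRHL, lay only on probe sets shared with another gene and were not analysed here. The remaining matches were 4 RNA genes, 2 readthrough genes and ATP5IF1, an inhibitor of complex V that is described apart. Where a gene had several probe sets of its own, as 43 of the 75 did, the one with the highest mean over all arrays stood for it.

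RNA was measured on 12 arrays of 4 lines, with 3 biological replicates a line, on a 3′ expression array with labelling from an oligo-dT primer. SKR6 is a population sorted by flow cytometry for high HER2 from SKBR-3, an established human breast cancer line. SKR6-Vector is SKR6 that received the empty retroviral vector pQCXIP and was selected with puromycin, and SKR6CA is SKR6 that was transduced with a retrovirus encoding relA/p65, a subunit of NF-κB, in a constitutively active form (CAp65), also under puromycin. SKR6LR is SKR6 kept for several months in lapatinib, an inhibitor of the HER2 and EGFR kinases, at concentrations raised from 0.2 to 5 µM to obtain a resistant population. All lines were grown for 48 hours in RPMI 1640 with 10% serum before RNA was taken, and the growth protocol states that the cells it calls SKLR were kept in 0.2 µM lapatinib. Each engineered or selected line was made from SKR6, and the labels do not say whether the replicates were separate derivations of a line, so p-values measure the spread between these cultures only.

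In the respiratory chain, complexes I and II pass electrons from NADH and succinate to ubiquinone, complex III passes them to cytochrome c, and complex IV reduces oxygen. Complexes I, III and IV pump protons across the inner mitochondrial membrane, and complex V, the ATP synthase, uses the gradient to make ATP. Most subunits are nuclear genes whose products are imported into mitochondria, while a small core set is encoded in mitochondrial DNA, so each complex other than complex II is built from both genomes.

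The arrays had medians between 5.74 and 5.77 on the log2 scale used throughout. The 8 markers of the HER2-amplified luminal line averaged 11.87 to 11.99 on the SKR6, SKR6-Vector and SKR6CA arrays and 11.27 to 11.55 on the SKR6LR arrays, and 4 of them were lower and 2 higher in SKR6LR than in SKR6. ERBB2 was lower by 1.38 (adjusted p = 4.28e-10), as were GRB7, STARD3 and KRT19, while KRT18 and KRT8 were higher by 0.63 and 0.45 (adjusted p = 0.0156 for KRT8). CDH1 was the marker below the array median in every line, at a mean of 4.28 in SKR6. Of 7 fibroblast markers, COL3A1 alone was called, 4.92 higher in SKR6LR, and of 4 measured leukocyte markers CD14 alone, 1.72 higher in SKR6LR, with PTPRC, CD3E and LYZ not called there; the list means were 5.85 to 5.95 against 5.16 to 5.30 and 5.04 to 5.12 against 4.56 to 4.70. RELA, which encodes p65, differed by -0.06 between SKR6CA and SKR6-Vector (adjusted p = 0.753); whether its probes lie in the part carried by the retrovirus was not given, so this does not check the label. The NF-κB target TNFAIP3 was 2.84 higher in SKR6CA than in SKR6-Vector (adjusted p = 1.91e-05). TNFAIP3 was also 3.57 higher in SKR6LR than in SKR6 (limma, adjusted p = 4.07e-07), and RELA was 0.37 higher there (adjusted p = 0.00464). A high TNFAIP3 level was thus not particular to SKR6CA. SKR6LR replicate 3 had the largest difference between actin probe sets at the 3′ and 5′ ends of the transcript, 2.32 against 1.03 to 1.73 on the other arrays.

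Subunit genes were among the more strongly detected on the array. In all, 68 of the 75 had a mean of at least 10, as did 3577 of all 19775 genes. The 7 others were COX4I2, COX6A2, COX6B2, COX7A1, COX7B2 and COX8C, isoforms of complex IV subunits known from lung, muscle, heart or testis, and ATP5MF, which was represented only by a dim probe set. The median SD between replicates over the 75 genes was 0.0254 in SKR6, 0.0264 in SKR6-Vector, 0.0383 in SKR6CA and 0.0969 in SKR6LR, so the cultures of SKR6LR differed from each other more than those of the other lines.

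Stretches of promoters are shown first, because the genes share known regulators: NRF1, the ETS factor GABP and YY1 are the classic factors of nuclear respiratory genes. RefSeq promoters (GRCh38.p14, 250 bases before to 50 after the start of the gene) were matched for 64 of the 75 genes and searched on both strands. The NRF1 palindrome, which is the stretch in capitals in NDUFB4 and SDHD below, was found in 4 of the 64 (6.25%) and in 1.76% of all 15843 promoters. The ETS letters CCGGAAG were found in 18 (28.1%) against 14.2%, and the YY1 letters AAGATGGC in 10 (15.6%) against 3.91%. The capitals below mark the NRF1 letters in NDUFB4 (chr3:120596157-120596206, plus strand) and SDHD (chr11:112086743-112086792, plus strand), and the ETS letters, or their reverse complement, in COX5B (chr2:97646005-97646051, plus strand), NDUFS1 (chr2:206159575-206159621, minus strand) and ATP5PD (chr17:75047044-75047090, minus strand); each is read 5′ to 3′ on the strand of its gene and lies wholly before the start. They are genes to which the results below return.
NDUFB4: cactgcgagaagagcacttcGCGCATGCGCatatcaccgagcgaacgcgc
SDHD: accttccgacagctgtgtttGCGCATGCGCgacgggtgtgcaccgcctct
COX5B: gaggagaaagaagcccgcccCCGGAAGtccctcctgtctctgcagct
NDUFS1: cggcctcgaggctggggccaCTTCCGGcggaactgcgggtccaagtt
ATP5PD: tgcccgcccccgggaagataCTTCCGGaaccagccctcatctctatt

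Values of genes with and without these letters were set side by side. Among subunit genes with a mean of at least 10, the median difference between SKR6LR and SKR6 was -0.35 for the 4 with the NRF1 letters and -0.56 for the 56 without, -0.45 for the 18 with the ETS letters and -0.58 for the 42 without, and -0.56 for the 10 with the YY1 letters and -0.54 for the 50 without. A match is a description of the letters in this window and was not tested as a binding site.

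SKR6LR was set against SKR6, the line it was made from. Selection, the months in culture and any lapatinib kept in the medium cannot be told apart in this comparison. Nearly the whole set was lower in SKR6LR. Of the 75 subunit genes, 66 fell and 1, COX7B2, rose (limma, adjusted p under 0.05), while over all genes 31.0% were called lower and 21.4% higher. The median difference was -0.48 over the subunit genes and -0.06 over all genes. All SKR6LR arrays lay below all SKR6 arrays for 68 of the 75 and above them for 2, against 34.9% and 23.0% of all genes. Because the set is highly expressed, it was also read against genes of like level: of genes with a mean of at least 10, 49.0% were called lower and 28.0% higher and the median was -0.16, while 66 of the 68 subunit genes at that level fell and their median was -0.54. Among the 301 genes with a mean of 13 or more, 50.2% were called lower with a median of -0.15, and 25 of the 27 subunit genes in that range fell with a median of -0.43. RNA came from whole cultures, so fewer cells with a transcript and less of it per cell cannot be told apart. After cyclic loess scaling, which brought the median of all genes to 0.0008, 55 subunit genes fell and the median over the 75 was -0.31.

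**Figure D1:**
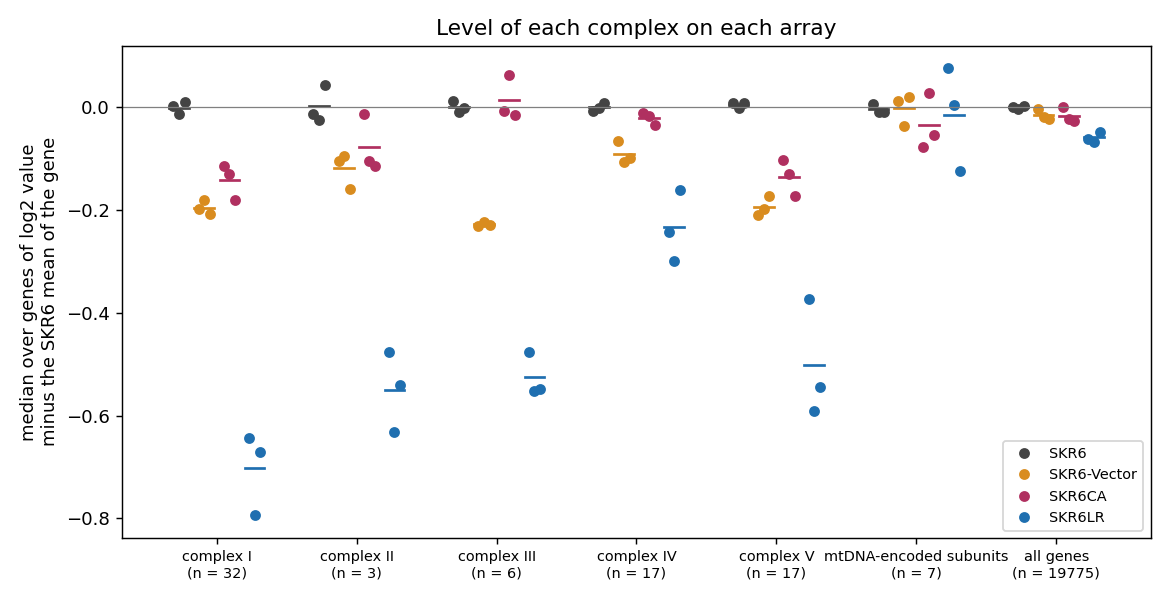
Median over the genes of each complex of the log2 value minus the gene's SKR6 mean, for each of the 12 arrays (points) with the mean of the 3 arrays of a line (bars), next to the mitochondrially encoded subunits and all 19775 genes. The SKR6LR arrays lie lowest for complexes I to V, between -0.64 and -0.79 for complex I, and spread around 0 for the mitochondrially encoded subunits.

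By the median over all measured genes of a complex, the shift was largest in complex I and smallest in complex IV. The median of the 32 complex I genes, set against the SKR6 mean of each gene, was -0.64, -0.79 and -0.67 on the SKR6LR arrays. For complex II it was -0.48, -0.63 and -0.54, and for complex III -0.48, -0.55 and -0.55. Complex IV had -0.24, -0.30 and -0.16, and complex V -0.37, -0.59 and -0.54. The 3 SKR6 arrays stayed within 0.0436 of 0 in every complex, so the SKR6LR arrays did not overlap them in any. The complex IV medians include its isoforms with a mean under 10, none of which was called lower. The fall also varied with level: the median over subunit genes was -0.72 at a mean of 11 to 12 and -0.43 at 13 or more. The complexes were not matched for level. The differences between complexes were not tested, since genes of a complex are not replicates.

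All 32 complex I genes fell in SKR6LR, with differences from -0.16 to -1.42 and a median of -0.71. NDUFS7, the core subunit that carries the last iron-sulfur cluster before ubiquinone, stood at 11.33, 11.32 and 11.45 on the SKR6 arrays and at 9.91, 10.00 and 9.94 on the SKR6LR arrays. This was the largest fall of the set, -1.42 (SE 0.0581, adjusted p = 4.26e-10), or 0.374 of the SKR6 level, and a second, dimmer probe set of NDUFS7 with a mean of 6.09 differed by -0.21. NDUFA9, an accessory subunit that binds NADPH at the junction of both arms of the complex, stood at 12.33, 12.30 and 12.32 in SKR6 and at 11.10, 11.03 and 11.15 in SKR6LR, a difference of -1.23 (SE 0.058, adjusted p = 1.65e-09). NDUFB10, an accessory subunit of the membrane arm, stood at 13.07, 13.05 and 13.11 in SKR6 and at 11.95, 11.84 and 11.77 in SKR6LR, a difference of -1.22 (SE 0.0644, adjusted p = 4.63e-09). In each of these genes the lines were separated by far more than the spread of their arrays, and the second NDUFB10 probe set fell by 1.12.

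The fall covered every class of complex I gene. The 5 measured core subunits, NDUFS1, NDUFS3, NDUFS7, NDUFV1 and NDUFV2, of the arm that takes electrons from NADH, had a median of -0.77, and the 27 accessory subunits had a median of -0.68. By name, the medians were -0.62 for the 12 NDUFA genes, -0.82 for the 11 NDUFB genes, -0.90 for the 5 NDUFS genes and -0.68 for the 3 NDUFV genes, and the single NDUFC gene, NDUFC1, fell by 0.90. The smallest fall was that of NDUFV3, an accessory subunit of the NADH-oxidising module, at -0.16 (adjusted p = 0.0225); its second probe set was 0.40 higher in SKR6LR (adjusted p = 0.00447 over all probe sets), so the direction of NDUFV3 depended on the probe set. NDUFB4, whose promoter is shown above, fell from 12.89, 12.89 and 12.95 to 12.58, 12.42 and 12.54. On the brightest probe sets not marked as able to bind several transcripts, NDUFB4 differed by 0.24 (adjusted p = 0.143) and NDUFB6, which fell by 0.25, by 0.11 (adjusted p = 0.55). Those probe sets were dim, with means of 5.62 for NDUFB4 and 3.94 for NDUFB6, below the median of all values, 5.76.

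The 3 measured genes of complex II, which is also the succinate dehydrogenase of the citric acid cycle, all fell. SDHA, the flavoprotein subunit, stood at 12.12, 12.15 and 12.25 in SKR6 and at 11.39, 11.18 and 11.26 in SKR6LR, a difference of -0.90 (SE 0.0671, adjusted p = 1.38e-07). SDHC, a membrane anchor, differed by -0.55 (adjusted p = 3.67e-06). The other membrane anchor, SDHD, moved from 12.28, 12.24 and 12.33 to 12.10, 12.08 and 12.05, a difference of -0.21 (adjusted p = 0.00404) that was -0.039 (adjusted p = 0.56) after cyclic loess scaling. The SDHA and SDHC probe sets are of a kind that the array maker marks as able to bind related sequences, and both genes have known pseudogenes, so their values may include other transcripts.

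All 6 complex III genes fell, by 0.36 to 0.90. UQCRB, a subunit at the ubiquinone-binding part of the complex, stood at 11.995, 12.01 and 12.03 in SKR6 and at 11.29, 11.03 and 11.03 in SKR6LR, a difference of -0.90 (SE 0.0748, adjusted p = 4e-07). UQCR10, a small subunit, differed by -0.72 (adjusted p = 1.1e-06). UQCRC1, one of the core proteins on the matrix side, stood at 11.55, 11.51 and 11.52 in SKR6 and at 11.03, 11.05 and 10.62 in SKR6LR, a difference of -0.63 (SE 0.0998, adjusted p = 0.000139). Replicate 3 of SKR6LR was the lowest of these, and without it the difference was -0.49. Its partner UQCRC2 fell by 0.43.

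Complex IV, the cytochrome c oxidase, differed least: 11 of its 17 genes fell, COX7B2 rose and 5 were not called. COX8A, the smallest subunit, stood at 13.57, 13.58 and 13.60 in SKR6 and at 12.85, 12.67 and 12.90 in SKR6LR, a difference of -0.78 (SE 0.0661, adjusted p = 4.48e-07). COX6B1, which links the monomers of the dimer on the intermembrane side, differed by -0.44 (adjusted p = 6.27e-06), and COX6C by -0.43 (adjusted p = 3.1e-05). The 8 other falls were smaller, from -0.14 for COX7A2L, which has a role in joining complexes III and IV, to -0.40 for COX6A1. COX4I1 fell by 0.26, but a dim COX4I1 probe set was 0.22 higher in SKR6LR (adjusted p = 0.0252 over all probe sets). The 5 genes not called were the dim isoforms COX4I2, COX6A2, COX6B2, COX7A1 and COX8C. Their levels on the 12 arrays lay between 3.48 and 6.47, near the median of all values, 5.76, or below it, and none of them was called in any comparison of lines; the common partners COX4I1, COX6A1, COX6B1, COX7A2 and COX8A all fell in SKR6LR.

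In complex V, 14 of 17 genes fell. The c-ring of the membrane part, which turns as protons pass, is encoded by 3 paralogues whose mature products are the same protein, and all 3 fell. ATP5MC1 stood at 11.68, 11.68 and 11.69 in SKR6 and at 10.74, 10.36 and 10.60 in SKR6LR, a difference of -1.12 (SE 0.083, adjusted p = 1.28e-07). ATP5MC2 differed by -0.80 (adjusted p = 1.35e-06), though a probe set with a mean of 4.81 differed by 0.16, and ATP5MC3 by -0.38 (adjusted p = 9.3e-05). ATP5PD, subunit d of the peripheral stalk, stood at 13.53, 13.53 and 13.52 in SKR6 and at 12.68, 12.60 and 12.58 in SKR6LR, a difference of -0.90 (SE 0.0494, adjusted p = 6.74e-09); its dimmer probe set, with a mean of 6.72, differed by -0.049. The 5 genes of the catalytic F1 part, ATP5F1A to ATP5F1E, all fell, from -0.30 for ATP5F1C to -0.72 for ATP5F1D. For ATP5F1C all 3 bright probe sets fell, while one with a mean of 7.90 was 0.59 higher (adjusted p = 0.000739 over all probe sets). The 3 genes not called were ATP5PF at -0.15 (adjusted p = 0.052), ATP5MK at -0.11 (adjusted p = 0.0741) and the dim ATP5MF at 0.06.

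**Figure D2:**
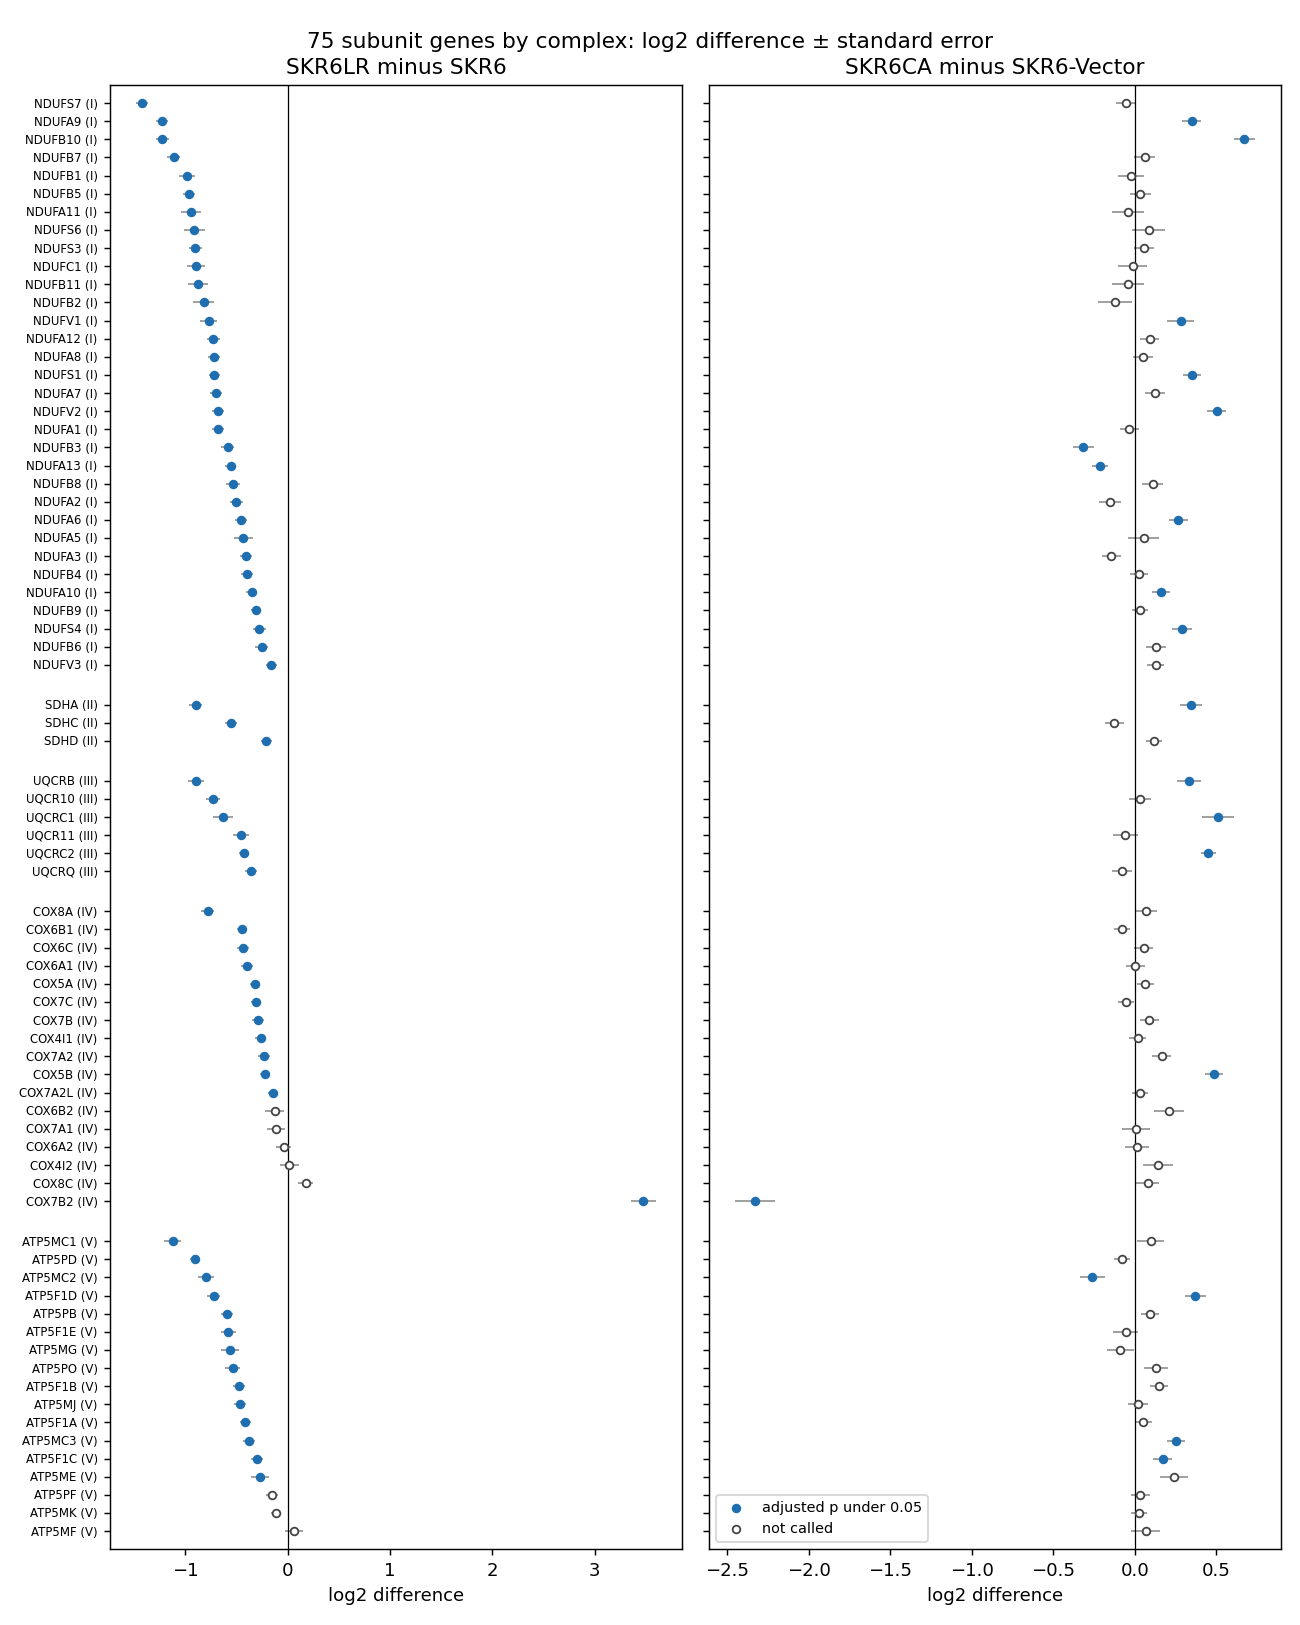
Log2 difference ± standard error of each of the 75 subunit genes between SKR6LR and SKR6 (left) and between SKR6CA and SKR6-Vector (right), ordered within complexes I to V by the left panel; the panels have different x scales, and filled points had an adjusted p under 0.05. Complexes I to III lie wholly below 0 on the left, COX7B2 is far to the right on the left panel and far to the left on the right panel, and most right-hand points lie within 0.2 of 0.

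ATP5IF1, the inhibitor that holds back ATP hydrolysis by complex V, fell further than any of the 75 subunit genes. It stood at 11.67, 11.66 and 11.66 in SKR6 and at 9.56, 9.24 and 9.39 in SKR6LR, a difference of -2.27 (SE 0.0745, adjusted p = 5.11e-11), or 0.208 of the SKR6 level. SKR6-Vector stood at 11.06, 11.07 and 11.12, and SKR6CA at 11.24, 11.25 and 11.13. Both transduced lines thus lay between SKR6 and SKR6LR and did not overlap either, with differences from SKR6 of -0.58 (adjusted p = 0.0001) and -0.46 (adjusted p = 0.000743); the difference between them was 0.12 (adjusted p = 0.284).

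The subunits encoded in mitochondrial DNA moved in both directions between SKR6LR and SKR6. Of the 13, 7 had probe sets, and their median difference between SKR6LR and SKR6 was -0.0067. MT-CO1, the catalytic subunit of complex IV, differed by -0.37 (adjusted p = 0.00113), MT-ATP6, a complex V subunit beside the c-ring, by -0.34 (adjusted p = 0.01), and MT-ND6, a complex I subunit, was 0.55 higher (adjusted p = 0.000792). MT-CO2, MT-CO3, MT-ND2 and MT-ND4 were not called, with differences from -0.07 to 0.12. MT-CO1 was also lower in SKR6CA, by 0.29 against SKR6-Vector (adjusted p = 0.0134) and by 0.35 against SKR6 (adjusted p = 0.00509), and MT-ND6 was 0.35 lower in SKR6CA than in SKR6 (adjusted p = 0.0326). The nuclear and mitochondrial sets were not tested against each other. MT-ATP6 stood at 14.38, 14.34 and 13.93 in SKR6LR, lowest in replicate 3, the array with the largest actin difference, whose part in the result was not tested. Several of these probe sets read near 15, close to the highest value of the table, where a difference can be compressed.

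SKR6CA was set against SKR6-Vector, its empty-vector control, for the effect of active p65. A minority of the subunit genes were higher in SKR6CA than in SKR6-Vector, spread over all complexes: 16 rose and 4 fell, against 11.7% of all genes called higher and 14.9% lower. Rises and falls with active p65 are relative to SKR6-Vector throughout. None of the 16 was called higher in SKR6CA than in untransduced SKR6, and most were called lower in SKR6-Vector than in SKR6. Among genes with a mean of at least 10 the background was 21.6% higher and 20.7% lower, and the subunit genes at that level had 16 of 68 higher (23.5%) and 3 lower (4.41%). The share that rose was thus near that of equally expressed genes, while the share that fell was smaller. The median difference was 0.06 over the subunit genes and 0.0033 over all genes, and the SKR6CA arrays all lay above the SKR6-Vector arrays for 35 of 75 genes and below for 13, against 21.3% and 24.2% of all genes. After median centring, which shifted the median of all genes to 0.06, 22 rose and 3 fell and the median was 0.11. Over all genes, the higher calls made up 43.9% of all calls, and 56.2% after median centring.

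In complex I, 8 genes rose with active p65 and 2 fell. NDUFB10 stood at 12.57, 12.55 and 12.58 in SKR6-Vector and at 13.34, 13.19 and 13.17 in SKR6CA, the largest rise of the set, 0.67 (SE 0.0644, adjusted p = 8.79e-06), and its second probe set rose by 0.55. NDUFV2, a core subunit with an iron-sulfur cluster of the NADH-oxidising module, stood at 11.82, 11.85 and 11.91 in SKR6-Vector and at 12.38, 12.36 and 12.35 in SKR6CA, a difference of 0.50 (SE 0.058, adjusted p = 3.91e-05). The arrays of the lines did not overlap in either gene. NDUFS1, the largest core subunit, was 0.35 higher (adjusted p = 0.000387) on its brightest probe set, but the next probe sets, with means of 9.38 and 9.19, differed by -0.02 and -0.20 and were not called, so the rise of NDUFS1 rests on 1 probe set. The other rises were NDUFA9 (0.35), NDUFS4 (0.29), NDUFV1 (0.28), NDUFA6 (0.27, and -0.02 on another probe set) and NDUFA10 (0.16). NDUFB3, a small accessory subunit, stood at 11.96, 11.90 and 11.91 in SKR6-Vector and at 11.58, 11.66 and 11.57 in SKR6CA, a difference of -0.31 (adjusted p = 0.00305), and NDUFA13, also known as the cell death regulator GRIM-19, differed by -0.21 (adjusted p = 0.00656).

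In complexes II and III, SDHA, UQCRC1, UQCRC2 and UQCRB rose. SDHA stood at 11.68, 11.71 and 11.62 in SKR6-Vector and at 12.09, 11.98 and 11.98 in SKR6CA, a difference of 0.35 (SE 0.0671, adjusted p = 0.00192). UQCRC1 stood at 11.20, 11.19 and 11.18 in SKR6-Vector and at 11.82, 11.61 and 11.68 in SKR6CA, a difference of 0.51 (SE 0.0998, adjusted p = 0.00205). The core protein UQCRC2 rose by 0.45 (adjusted p = 1.86e-05), and a second bright probe set by 0.53. Both core proteins of complex III were thus separated between these lines without overlap. UQCRB rose by 0.33 (adjusted p = 0.00523) on its brightest probe set and by 0.31 on the next, but a dimmer probe set with a mean of 7.52 differed by -0.01.

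In complexes IV and V, 4 genes rose and 2 fell. COX5B, a zinc-binding subunit on the matrix side, stood at 12.82, 12.78 and 12.77 in SKR6-Vector and at 13.30, 13.26 and 13.27 in SKR6CA, a difference of 0.49 (SE 0.0532, adjusted p = 2.56e-05). All 4 COX5B probe sets were called higher, by 0.44 to 0.58. In complex V, ATP5F1D, the delta subunit of the central stalk, rose by 0.37 (adjusted p = 0.000733) and ATP5MC3 by 0.25 (adjusted p = 0.0055). On the mean of its probe sets, of which the dimmest differed by 0.04, ATP5MC3 was 0.18 higher (adjusted p = 0.103). ATP5F1C, the gamma subunit of the same stalk, was 0.17 higher with an adjusted p of 0.0488, which rose to 0.0689 to 0.125 when any 1 of the 9 arrays of SKR6, SKR6-Vector and SKR6CA was left out. ATP5MC2, another c-ring gene, was 0.26 lower (adjusted p = 0.0219); leaving out SKR6-Vector replicate 1 or 2 or SKR6CA replicate 2 or 3 raised the adjusted p to 0.0535 to 0.0773. The other fall, COX7B2, is described below.

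All 16 subunit genes that rose with active p65 were among the 66 that fell in SKR6LR, comparisons that have no array in common. Since 66 of all 75 fell in SKR6LR, this overlap follows closely from that count. Of the 4 subunit genes that fell with active p65, ATP5MC2, NDUFA13 and NDUFB3 also fell in SKR6LR, and COX7B2 rose there. A further 47 fell in SKR6LR without a call for active p65.

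**Figure D3:**
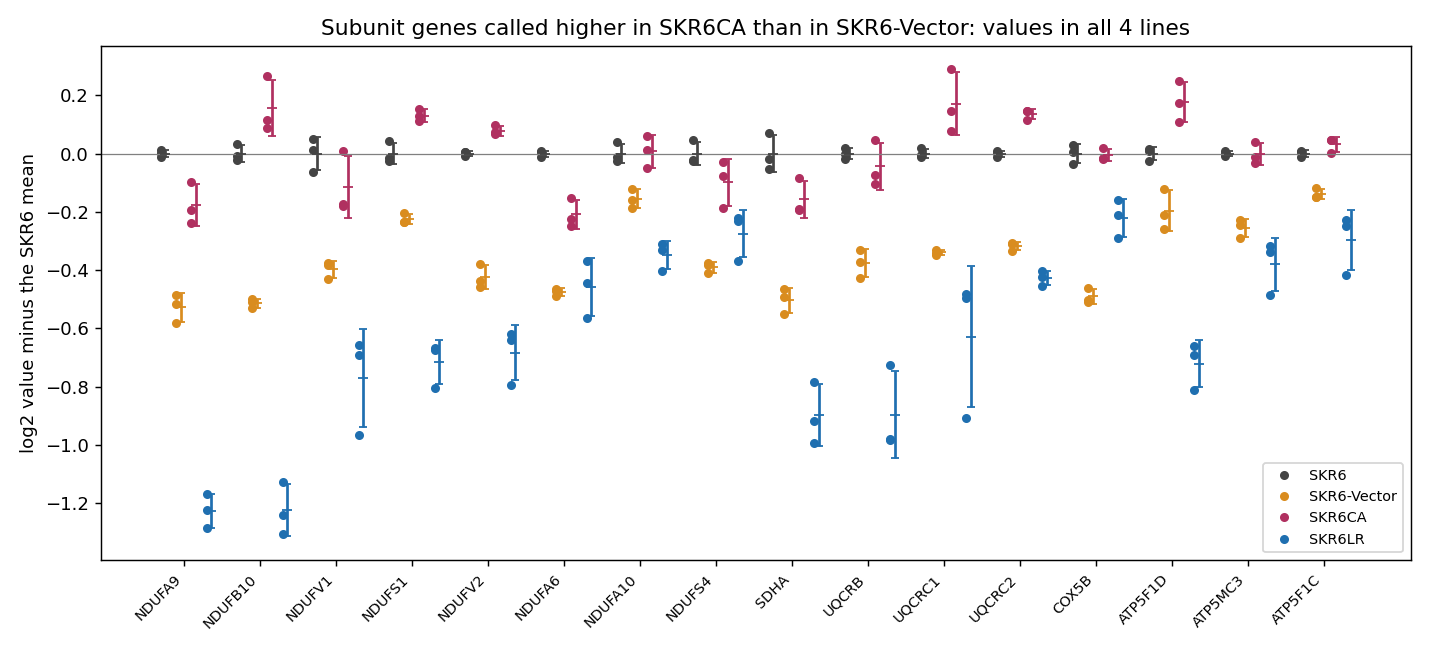
Log2 value minus the SKR6 mean on each array (points), with mean ± SD of 3 arrays, for the 16 subunit genes called higher in SKR6CA than in SKR6-Vector. The SKR6-Vector arrays lie below 0 in every gene, most SKR6CA means lie within 0.2 of 0, and the SKR6LR arrays lie lowest in most genes but not in NDUFA6, NDUFS4 or COX5B.

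SKR6-Vector was compared with SKR6 as the control for the vector and puromycin selection; this comparison shares the SKR6-Vector arrays with the previous one, so a low or high value on those arrays enters both with opposite sign. In SKR6-Vector, 35 subunit genes fell and COX7B2 rose, against 13.4% of all genes called lower and 12.2% higher. The median was -0.16 over the subunit genes and -0.02 over all genes. Of the 68 with a mean of at least 10, 51.5% were called lower, against 25.1% of all genes at that level, of which 18.7% were called higher. The SKR6-Vector arrays all lay below the SKR6 arrays for 59 of 75 genes and above them for 3, against 25.9% and 22.3% of all genes. The falls covered 16 complex I genes, 1 of complex II, 3 of complex III, 5 of complex IV and 10 of complex V. They were mostly under 0.5: NDUFA9 differed by -0.53 (adjusted p = 2.8e-05), NDUFB10 by -0.51 (adjusted p = 8.08e-05), SDHA by -0.50 (adjusted p = 0.000135), COX5B by -0.49 (adjusted p = 2.49e-05), ATP5MC1 by -0.48 (adjusted p = 0.000926) and UQCRB by -0.38 (adjusted p = 0.00254). With cyclic loess scaling 26 fell and 2 rose, and without SKR6LR replicate 2 in the fit 2 rose.

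SKR6CA compared with untransduced SKR6 shares arrays with both of the previous comparisons. Here 17 subunit genes fell and COX7B2 rose, against 14.4% of all genes called lower and 9.97% higher, and the median was -0.09. The SKR6CA arrays all lay below the SKR6 arrays for 43 genes and above for 9, against 26.2% and 19.3% of all genes. Of the 68 genes with a mean of at least 10, 17 were called lower, a share near the 22.9% of all genes at that level, where 17.6% were called higher. The falls were 10 complex I genes, COX6B1 in complex IV and 6 complex V genes. NDUFS6, an accessory subunit with a zinc site, differed by -0.40 (adjusted p = 0.0115), ATP5MC2 by -0.50 (adjusted p = 0.000436) and COX6B1 by -0.18 (adjusted p = 0.0169). This count moved with the arrays in the fit. It was 9 without SKR6 replicate 1 or SKR6CA replicate 3, 10 without SKR6 replicate 3 and 11 without SKR6 replicate 2, and up to 24 without SKR6LR replicate 2. It was 30 with array weights and 28 with a weight per line. The number of rises was 2 without SKR6 replicate 1 or SKR6LR replicate 1, 3 without SKR6LR replicate 3 and 4 without SKR6LR replicate 2. The split also moved with the scaling, with 5 higher and 13 lower after cyclic loess and 3 higher and 10 lower after median centring. The COX6B1 difference had adjusted p-values of 0.0581 to 0.0671 without SKR6 replicate 1 or 3 or SKR6CA replicate 3.

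The values of the genes that rose with active p65 are best read in all 4 lines side by side. NDUFB10 had means of 13.08 in SKR6, 12.56 in SKR6-Vector, 13.23 in SKR6CA and 11.85 in SKR6LR, and SKR6CA differed from SKR6 by 0.16 (adjusted p = 0.103). COX5B had means of 13.28, 12.79, 13.28 and 13.06 in the same order, and SKR6CA and SKR6 differed by -0.0046 (adjusted p = 0.969). For SDHA, SKR6CA lay 0.16 below SKR6 (adjusted p = 0.121), with all its arrays below. NDUFA9 (-0.18, adjusted p = 0.044) and NDUFA6 (-0.21, adjusted p = 0.0219) were lower in SKR6CA than in SKR6. UQCRC1 lay 0.17 above SKR6 (adjusted p = 0.261) and UQCRC2 0.14 above (adjusted p = 0.0576), with no overlap of arrays in either gene. Over the 16 genes, chosen for being higher in SKR6CA than in SKR6-Vector, the differences between SKR6CA and SKR6 ran from -0.21 to 0.18, and the median over all 75 was -0.09. Of the 16, 12 were called lower in SKR6-Vector than in SKR6 and were not called in SKR6CA against SKR6. NDUFA6 and NDUFA9 were called lower than SKR6 in both transduced lines, and ATP5F1C and NDUFA10 in neither.

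The effect named for active p65, SKR6CA minus SKR6-Vector, and that named for lapatinib selection, SKR6LR minus SKR6, were compared directly by a contrast. The contrast was above 0 for 66 subunit genes and below 0 for 1, COX7B2 (adjusted p under 0.05), against 25.6% and 19.8% of all genes. Among genes with a mean of at least 10 it was above 0 for 65 of 68 subunit genes and for 44.5% of all genes, with 25.5% below 0. All 32 complex I genes, the 3 of complex II and the 6 of complex III were called, as were 14 of 17 in complex V. In complex IV 11 were above 0, among them COX6B2, which was called in neither effect alone (0.34, adjusted p = 0.047). The contrast subtracts the SKR6LR effect, and 47 subunit genes fell in SKR6LR without a call for active p65. Its count above 0 therefore largely repeats the falls in SKR6LR and does not by itself show rises with active p65.

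COX7B2 had the largest difference of the 75 genes in each comparison of lines. It encodes a paralogue of COX7B, a small complex IV subunit, and is known mostly from testis. Its values were 6.10, 5.92 and 5.88 in SKR6, 9.03, 8.91 and 8.94 in SKR6-Vector, 6.43, 6.78 and 6.69 in SKR6CA and 9.52, 9.16 and 9.66 in SKR6LR. The lines thus ranked SKR6, SKR6CA, SKR6-Vector and SKR6LR, with no overlap of arrays between neighbours. COX7B2 was 3.47 higher in SKR6LR than in SKR6 (SE 0.124, adjusted p = 1.06e-10), and 2.99 higher in SKR6-Vector than in SKR6 (adjusted p = 6.04e-09). The SKR6 level was near the median of all values, 5.76, and whether it was above background is not known, so these differences may be understated. With active p65 it fell by 2.33 from SKR6-Vector (adjusted p = 5.79e-08) and stood 0.66 above SKR6 (adjusted p = 0.00185). COX7B stayed between 13.77 and 14.18 on all arrays and fell in SKR6LR by 0.29 (adjusted p = 0.000977).

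The 100 bases before the start of COX7B (chrX:77899368-77899467, plus strand) and of COX7B2 (chr4:46909246-46909345, minus strand) are given here because the paralogues behaved so differently; capitals mark the CG dinucleotides, 7 and 4 in these stretches.
COX7B: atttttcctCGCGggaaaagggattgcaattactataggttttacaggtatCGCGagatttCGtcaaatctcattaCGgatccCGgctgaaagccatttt
COX7B2: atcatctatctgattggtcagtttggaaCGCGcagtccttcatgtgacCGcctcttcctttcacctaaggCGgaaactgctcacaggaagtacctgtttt
In the 250 bases before the start COX7B2 had 5 CG dinucleotides and COX7B 13. The median was 17 over all promoters, 19 over the 60 matched subunit genes with a mean of at least 10, and 6.5 over the 4 dimmer ones. CG content is a description of the sequence; methylation was not measured.

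**Figure D4:**
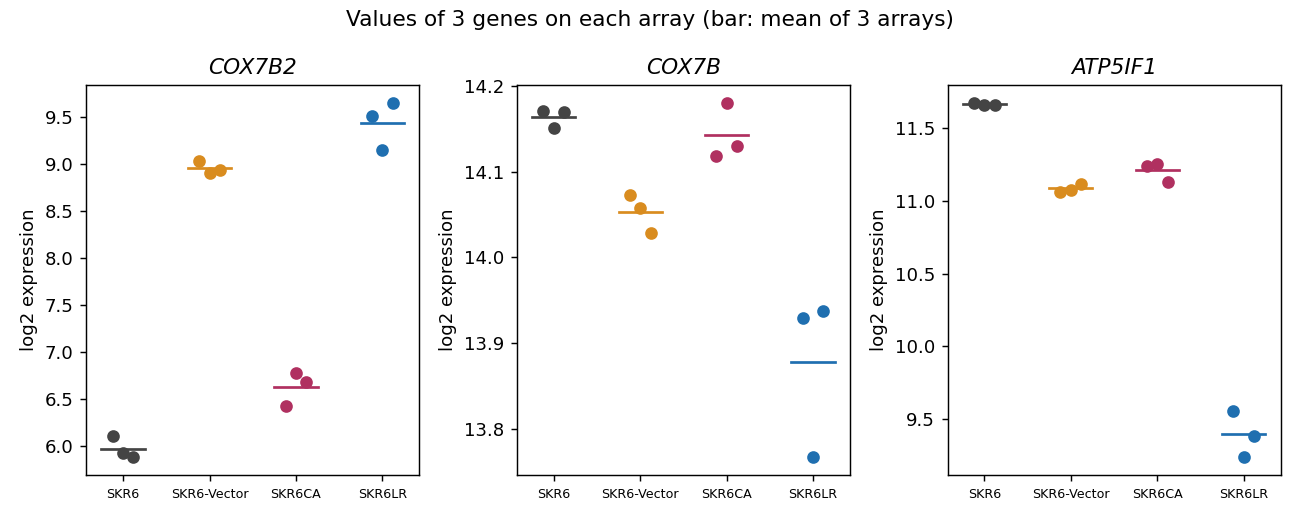
Log2 values of COX7B2, COX7B and ATP5IF1 on each of the 12 arrays (points) with the mean of each line (bars); each panel has its own y scale, and levels are not comparable between genes. COX7B2 lies near 6 in SKR6 and near 9 in SKR6-Vector and SKR6LR, COX7B spans less than 0.5 in all, and ATP5IF1 is lowest in SKR6LR.

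Partners of the subunits outside the name rule were read in the same way. CYC1, the cytochrome c1 subunit of complex III, stood at 12.83, 12.75 and 12.70 in SKR6, 12.29, 12.37 and 12.35 in SKR6-Vector, 12.66, 12.62 and 12.60 in SKR6CA and 12.20, 12.19 and 12.12 in SKR6LR. It fell in SKR6LR by 0.59 (adjusted p = 1.12e-06) and rose with active p65 by 0.29 (adjusted p = 0.00171). NDUFAB1, the acyl carrier protein of complex I, fell in SKR6LR by 0.18 (adjusted p = 0.0108) and rose with active p65 by 0.22 (adjusted p = 0.00649). CYCS, cytochrome c itself, was called in neither, at -0.09 and 0.10. In SKR6CA against SKR6, CYC1 (-0.14, limma, adjusted p = 0.0983) and NDUFAB1 (-0.0025, adjusted p = 0.983) were not called.

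Of 58 measured assembly factors, which build the complexes but are not part of them, 40 were lower (69.0%) and 9 higher (15.5%) in SKR6LR than in SKR6, against 31.0% and 21.4% of all genes and 49.0% and 28.0% of those with a mean of at least 10, and the median was -0.47. NDUFAF8 and TMEM126A, factors of complex I, fell by 1.32 and 1.10, UQCC3 of complex III by 1.19, and PET100 and TACO1 of complex IV by 1.18 and 1.12. SDHAF4 of complex II rose by 0.85, TTC19 of complex III by 0.67 and SCO1, which delivers copper to complex IV, by 0.58. With active p65, 16 assembly factors rose, led by COA1 (0.66) and NDUFAF3 (0.54), and 12 fell, among them UQCC2 (-0.61), TMEM242 (-0.57) and SURF1 (-0.51). These shares with active p65, 27.6% and 20.7%, were near the 21.6% and 20.7% of all genes with a mean of at least 10. In SKR6-Vector against SKR6, 27 fell (46.6%) and 5 rose (8.62%), against 13.4% and 12.2% of all genes. Among genes with a mean of at least 10, these shares were 25.1% and 18.7%. In SKR6CA against SKR6, 21 fell (36.2%) and 3 rose (5.17%), against 14.4% and 9.97% of all genes. At a mean of at least 10 the shares there were 22.9% and 17.6%.

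Genes listed for the citric acid cycle, which feeds complexes I and II, were lower in SKR6LR too. The list also holds PDHA1, PDHB, PDHX and DLAT, of the pyruvate dehydrogenase complex, and PC, which are not enzymes of the cycle itself. Of the 17 measured genes of this list, 16 fell in SKR6LR (94.1%) with a median of -0.60. This compares with 31.0% of all genes and 49.0% of those with a mean of at least 10. SUCLA2, of the succinyl-CoA ligase, stood at 11.86, 11.87 and 11.86 in SKR6 and at 10.31, 10.32 and 10.36 in SKR6LR, a fall of 1.53 (adjusted p = 4.05e-11). With active p65, 7 rose (41.2%, against 11.7% of all genes and 21.6% of those with a mean of at least 10) and the lowest difference was -0.04. PC, pyruvate carboxylase, rose by 1.26 (adjusted p = 1.41e-07) and fell in SKR6LR by 1.15 (adjusted p = 3.66e-08). SUCLG1 rose by 0.57 with active p65 and fell by 0.89 in SKR6LR. In SKR6-Vector against SKR6, 9 of these genes fell and 1 rose, against 13.4% and 12.2% of all genes. In SKR6CA against SKR6, 3 fell (17.6%) and 2 rose (11.8%), against 14.4% and 9.97% of all genes, with a median of 0.02. There SUCLG1 was not called (-0.03, limma, adjusted p = 0.815), while PC was 0.52 higher (adjusted p = 0.000288).

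Regulators of mitochondrial genes moved in both directions. Of 18, 8 rose (44.4%) and 4 fell (22.2%) in SKR6LR, against 21.4% and 31.0% of all genes. MYC stood at 12.15, 12.06 and 12.07 in SKR6 and at 13.58, 14.04 and 13.84 in SKR6LR, a rise of 1.73 (adjusted p = 6.66e-09), and the coactivator PPRC1 rose by 1.36 (adjusted p = 2.81e-08). GABPA, the subunit of GABP that binds DNA, rose by 0.74 (adjusted p = 2.57e-05), while NRF1 differed by -0.08 (adjusted p = 0.27) and TFAM, the main packaging and transcription factor of mitochondrial DNA, by -0.14 (adjusted p = 0.243). TEFM and TFB1M, which act in mitochondrial transcription and ribosome maturation, fell by 0.69 and 0.48. With active p65, the coactivator PPARGC1B rose from 8.93, 9.01 and 9.08 to 10.12, 10.13 and 10.18, by 1.13 (adjusted p = 8.64e-08). TFB1M rose by 0.70, and TEFM and YY1 fell by 0.55 and 0.31. Against SKR6, SKR6CA was 0.47 higher for PPARGC1B (limma, adjusted p = 0.000192) and 0.56 lower for TEFM (adjusted p = 0.000279). TFB1M (0.05, adjusted p = 0.626) and YY1 (-0.15, adjusted p = 0.112) were not called there. Of the 18 regulators, 2 were called higher and 6 lower in SKR6CA than in SKR6.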

How the data were processed

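The values were the log2 expression values that the authors deposited for 54675 probe sets on 12 arrays. RMA and limma are named in the submitters' processing notes, without versions, parameters or roles; RMA commonly includes quantile normalisation across the arrays, which can hide a shift shared by most genes. Of the probe sets, 41097 were named for 1 gene and 1801 for several by the platform annotation of 2016, with symbols updated through RefSeq (GRCh38.p14), and 11777 were not listed. The gene lists and the genes counted were chosen with earlier results of these data known, and the mean of 10 used to compare genes of like level was chosen after the values were seen.

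One linear model with a mean per line was fitted to all 19775 genes over all 12 arrays (limma 3.58.1, lmFit and eBayes, R 4.3.3, 8 residual degrees of freedom), and p-values were adjusted over all genes by the Benjamini-Hochberg method, with a threshold of 0.05. "Called", "rose" and "fell" refer to that threshold. For each gene the model assumes the same spread in all lines, though the median SD over the subunit genes was 0.0969 in SKR6LR and 0.0254 in SKR6. The fitted weight per line was 0.333 for SKR6LR and 1.66 for SKR6. Standard errors and p-values may thus be too small for comparisons with SKR6LR and too large for those among the other lines. The scripts were tested on simulated data. Named genes were, for each complex, up to 3 largest rises and falls in either main comparison and the largest in the control comparisons; further genes were named after their values were seen. NDUFA4, NDUFA4L2 and SDHB were not analysed here. ATP5MJ and ATP5MK carry names that the rule takes and were counted in complex V. The fit was repeated with a block for replicate number, without each array in turn, after cyclic loess or median centring, with trend and robust estimates, with weights per array or per line, on the compared arrays alone, after filtering low values, on the mean of each gene's probe sets, without cross-binding probe sets (_x_at and _s_at), and at a threshold of 0.01. With 3 arrays a line, precision is limited by their number.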

Additional observations from a re-analysis of the deposited data

Results flagged for a closer look

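Effects named for active p65 (SKR6CA minus SKR6-Vector) and for lapatinib selection (SKR6LR minus SKR6) that differed most by the limma contrast are listed here. NDUFB10 had a difference between effects of 1.89 (SE 0.091, adjusted p = 3.54e-09), from a rise of 0.67 with active p65 and a fall of 1.22 in SKR6LR. NDUFA9 had a difference of 1.58 (SE 0.082, adjusted p = 7.48e-09), from 0.35 and -1.23. NDUFS7 had a difference of 1.36 (SE 0.0822, adjusted p = 3.03e-08), from -0.06 and -1.42, and 0.22 (adjusted p = 0.0985) on its dimmer probe set. COX7B2 had a difference of -5.80 (SE 0.175, adjusted p = 4.8e-11), from -2.33 and 3.47. The direction held in all 3 arrays of a line against all 3 of the other for each effect other than that of active p65 on NDUFS7. Lines with 3 arrays were not tested for single outlying arrays.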

How the results depend on the processing

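The replicate numbers did not pair the arrays: deviations of same-numbered arrays correlated at -0.0331 to 0.0948. With the replicate number as a block, 14 genes rose and 4 fell with active p65, 66 fell in SKR6LR, 29 in SKR6-Vector and 14 in SKR6CA against SKR6. ATP5F1C (adjusted p = 0.0568) and NDUFA10 (0.073) lost their rise with active p65, NDUFA9 (0.0746), NDUFA12 and ATP5MK their fall in SKR6CA against SKR6, 6 genes their fall in SKR6-Vector, and COX6B2 its difference between effects (0.067).

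Leaving out 1 array gave ranges of 1 to 2 rises and 63 to 66 falls for SKR6LR, 1 to 2 rises and 25 to 41 falls for SKR6-Vector with medians of -0.18 to -0.15, 1 to 4 rises and 9 to 24 falls for SKR6CA against SKR6, and 13 to 19 rises with active p65.

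Medians over the 75 genes moved as follows. With cyclic loess they were -0.31 for SKR6LR, -0.11 for SKR6-Vector and -0.056 for SKR6CA against SKR6. With median centring they were 0.11 for active p65, -0.18 for SKR6-Vector and -0.064 for SKR6CA against SKR6. For SKR6-Vector the median was -0.17 with the filter on low values, -0.12 with the mean of probe sets and -0.12 without cross-binding probe sets, where that for SKR6CA against SKR6 was -0.037.

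Counts moved too. Falls with active p65 were 7 with array weights, and rises 10 without cross-binding probe sets. Rises in SKR6LR were 2 with median centring, array weights or the mean of probe sets and 4 without cross-binding probe sets. Rises in SKR6-Vector were 2 with cyclic loess, trend and robust estimates, array weights, a weight per line, the compared arrays alone or the filter; falls were 20 without cross-binding probe sets and 23 at the threshold of 0.01. In SKR6CA against SKR6, rises were 5 with cyclic loess, array weights or a weight per line, 4 with trend and robust estimates, 3 with median centring, the compared arrays alone or the filter, and 2 with the mean of probe sets or without cross-binding probe sets; falls were 10 with median centring, 30 with array weights, 28 with a weight per line and 7 at 0.01. The causes were not tested.

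Without cross-binding probe sets, 63 genes stayed, often on dimmer probe sets. NDUFB10, SDHA, ATP5MC1 and COX8A were among those that had only probe sets of the cross-binding kinds and dropped out. With active p65, called rises turned for NDUFS1 (-0.0197), UQCRB (-0.0146), ATP5F1C (-0.0813) and NDUFA6 (-0.0199), and ATP5PD (0.27) and COX4I1 (-0.31) were called with the sign turned. In SKR6LR, 5 genes lost the call of their fall: ATP5F1A (-0.12), ATP5PD (-0.049), COX5B (-0.06), NDUFA11 (-0.20) and NDUFB1 (-0.18). Called falls in SKR6LR turned for 6 genes: ATP5F1C (0.59), NDUFV3 (0.40) and COX4I1 (0.22), called higher there with COX7B2, and ATP5MC2 (0.16), NDUFB4 (0.24) and NDUFB6 (0.11). In SKR6CA against SKR6 they turned for ATP5MC2 (0.11) and ATP5PD (0.33), and in SKR6-Vector for ATP5MC2, COX4I1, NDUFB4 and NDUFV3. Over 45 single-gene results recomputed under every setting, 979 of 1019 values kept direction and side of the threshold, 35 kept direction only and 5 reversed.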

Other observations

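The genomic neighbours of COX7B2 were read beside it. The 3 nearest measured genes on either side in the RefSeq order were GNPDA2, GABRG1, GABRA2, GABRA4, GABRB1 and COMMD8. GABRG1, GABRA2, GABRA4 and GABRB1 had line means of 3.81 to 4.95, below the median of all values, 5.76. At such levels a change may not be seen. In SKR6LR against SKR6, where COX7B2 was 3.47 higher, GNPDA2 was lower by 0.52 (limma, adjusted p = 1.43e-06) and none of the other neighbours was called. In SKR6-Vector against SKR6, where COX7B2 was 2.99 higher, COMMD8 was lower by 0.35 (adjusted p = 0.0175) and the others were not called. In SKR6CA against SKR6-Vector, where COX7B2 fell by 2.33, GNPDA2 was also lower, by 0.21 (adjusted p = 0.00811), and the other neighbours were not called.

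Of the RNA genes named after a subunit gene, NDUFB2-AS1 was 0.40 higher in SKR6LR than in SKR6 (limma, adjusted p = 0.00761), while NDUFB2 fell there by 0.82. The values of NDUFB2-AS1 were 6.63, 6.86 and 6.55 in SKR6 and 6.94, 7.22 and 7.08 in SKR6LR, without overlap. NDUFV1-DT and NDUFV2-AS1 were not called in any comparison of lines.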
